A study of Bos taurus with 12 samples.

Results

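A block of miRBase hairpin entries whose accessions start with MI0011 was examined in the longissimus muscle of beef steers during time-on-concentrates (TOC). The block holds bta-miR-2346 (MI0011374) and bta-miR-2411 (MI0011456). It was taken as the bovine series that runs from miR-2284 into the miR-2400s. Of 2712 rows in the small RNA table, 257 had such an accession, and the 105 of these with at least 1 value other than 0 are described here. These 105 rows stood for 103 entries, since 2 entries had a row for each of 2 loci. Only the 2 miRNAs named above could be paired with a name in the sources used here, so the other rows are given by accession and the series could not be checked by name. They were set against the 326 other miRBase rows that varied.

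A microRNA is cut from a hairpin transcript and guides a silencing complex to messenger RNAs that match its seed. Many bovine hairpins of this series were first described from sequencing of small RNA in cattle and are not known from most other mammals. The miR-2284 family is known for many similar copies spread over the bovine genome, and RefSeq (ARS-UCD2.0) lists 43 MIR2284 genes on 23 chromosomes. Little is established about their targets in muscle. In the same annotation MIR2346 lies on chromosome 19 within the span of ASPSCR1, whose product tethers the GLUT4 glucose transporter inside cells. MIR2411 lies on chromosome 3 within the span of UBAP2L, which encodes an RNA-binding protein of stress granules.

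Needle biopsies of longissimus muscle were taken from 4 Angus-cross yearling steers at d 0, d 92 and d 124 of TOC, which gave 12 small RNA libraries. All steers had the same sire and received the same high concentrate ration, and the 4 had been chosen because their intramuscular fat was closest to the mean. Every steer was sampled at all 3 times and serves as its own d 0 control, with no group kept off concentrates. The needle was placed at the left side of rib 11 first, at the right side of rib 11 at d 92 and at the left side of rib 12 at d 124, so time and site cannot be told apart. Each biopsy also mixes muscle fibres with fat, vessel and blood cells, and fewer cells of a type cannot be told apart from less RNA per cell. Of the marker miRNAs listed for the tissue and for other cells, only those that the study names have an accession in the sources used here. For adipose and connective tissue this was bta-miR-196a. Its rows bta-miR-196a-1 and bta-miR-196a-2 had medians of 8.65 and 9.46 and were above the floor in all 12 libraries. Levels (log2) over the 12 libraries were 8.68 to 11.06 for bta-miR-208b, a miRNA of muscle, 9.95 to 14.51 for bta-miR-144 and 9.85 to 13.4 for bta-miR-142, both of blood cells, and 8.01 to 13.36 for bta-miR-122, a miRNA of liver. The median at d 0, d 92 and d 124 was 11.65, 12.59 and 13.09 for bta-miR-144 and 11.12, 11.86 and 11.72 for bta-miR-142. It was 10.33, 10.22 and 9.38 for bta-miR-208b and 9.01, 9.71 and 9.83 for bta-miR-122. The part of these markers in the comparisons between times was not tested. Values are quantile-normalised levels on a log2 scale on which 0 is the floor, and the median of each row, which had been subtracted, was recovered from levels that rows share. The table holds no read depth for single libraries.

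The MI0011 entries were far less often detected than the other miRBase entries. Of 257 MI0011 rows, 152 were at 0 in all libraries and 40.9% varied, while 57 of 383 other miRBase rows were at 0 throughout and 85.1% varied. Of the 105 varying rows, 25 (23.8%) were above the floor in all 12 libraries. Among other miRBase rows this was 265 of 326 (81.3%). At the sparse end, 43 MI0011 rows (41.0%) were above the floor in 1 to 3 libraries against 20 (6.13%) of the others. A total of 19 MI0011 rows (18.1%) were seen in 1 library only, and 18 of these sat there at the lowest level above the floor that the library holds. The remaining 37 rows (35.2%) were above the floor in 4 to 11 libraries.

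**Figure D1:**
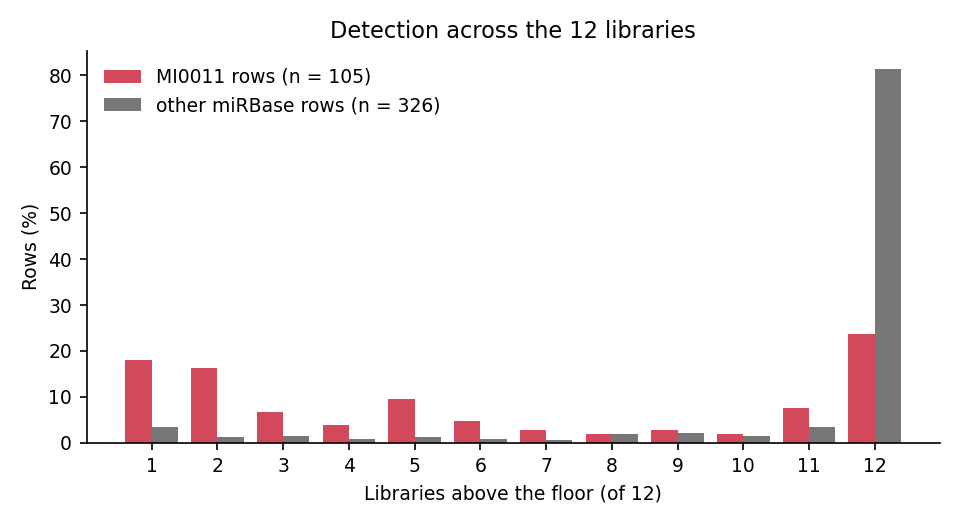
Share of rows (%, y axis) by the number of libraries in which a row was above the floor (x axis, of 12), for 105 MI0011 rows and 326 other miRBase rows that varied. The MI0011 rows pile up at both ends, with 18.1% in 1 library and 23.8% in all 12, while 81.3% of the other rows were in all 12.

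The number of MI0011 rows detected differed between libraries. At d 0, steers 1, 2, 3 and 4 had 61, 61, 51 and 61 MI0011 rows above the floor. At d 92 the libraries of the same steers had 45, 47, 58 and 46 rows. At d 124 they had 57, 48, 51 and 56 rows. The d 92 libraries were the lowest apart from that of steer 3, and the ranges of the times overlapped. The other miRBase rows above the floor stayed between 290 and 304 per library. The number of features tied at a library's lowest level, which ranged from 57 to 133, tended to be high where many MI0011 rows were seen. Steer 3 at d 92 had 116 such features against 63 to 86 in the other d 92 libraries. At d 0 steer 3 had 75, against 124 to 133 in the other steers. The part of this in the counts was not tested. When only rows at least 1 (log2) above the lowest level were counted, the numbers were 24 to 44 at d 0, 25 to 35 at d 92 and 31 to 42 at d 124, and d 0 no longer had the highest median. That threshold moves with the lowest level of each library, which ranged from 0.0306 to 0.954. Above 1 common level of 1.95 there were 24 to 28 rows at d 0, 25 to 31 at d 92 and 28 to 31 at d 124. The MI0011 rows made up between 0.41% and 0.547% of the summed level of the miRBase rows with a recovered median in every library. The 4 miRBase rows without one are left out of that sum, so the share of all miRBase rows would be lower.

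Among the 80 rows not seen in all libraries, 17 were at the floor in every d 0 library, 34 in every d 92 library and 27 in every d 124 library. At each time 8 of the 80 were above the floor in all 4 libraries. MI0011438 was the single row above the floor in every library of 1 time and in none of another. Of 28 rows seen in 2 to 4 libraries, 6 were seen at 1 time only and 1 in a single steer only. Most of these sparse rows were seen at more than 1 time and in more than 1 steer. These patterns were not counted in the other miRBase rows, so they are not shown to be particular to the MI0011 rows.

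Levels were low in most of these miRNAs, with 3 well above the rest. They are levels per row, with no correction for length. The median of the row medians was 0 for MI0011 rows and 7.76 for the other miRBase rows (log2 level). Over rows seen in all 12 libraries it was 4.43 against 8.79. A median of 8 or more was reached by 5 MI0011 rows (4.76%) and by 157 other rows (48.8%), and a median under 3 was found in 88 MI0011 rows (83.8%) against 69 others (21.4%). The highest were MI0011513 (median 10.59), MI0011514 (10.38) and MI0011482 (10.29), which ranked 93, 98 and 99 among 427 miRBase rows. MI0011364 (8.63) ranked 143 and MI0011546 (8.04) ranked 161. The first 3 rows held between 63.4% and 77.7% of the summed MI0011 level of a library (median 72.1%), and all 5 held 79.2% to 86.9%.

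The 3 highest rows varied most between steers at d 0. At that time MI0011513 had levels of 10.88, 9.68, 10.43 and 11.65 in steers 1, 2, 3 and 4. MI0011514 had 9.85, 11.09, 10.59 and 9.24 in the same libraries. MI0011482 had 9.71, 10.73, 10.39 and 9.36. Steer 2 was thus highest and steer 4 lowest for MI0011514 and MI0011482, and the order of the steers was the exact reverse for MI0011513. At d 92 the order was again the exact reverse between MI0011513 and MI0011482 but not between MI0011513 and MI0011514, and at d 124 it was the exact reverse for neither. The mean of MI0011513 was 10.66 ± 0.82 at d 0, 10.60 ± 0.27 at d 92 and 10.74 ± 0.54 at d 124 (SD, n = 4). MI0011514 averaged 10.19 ± 0.81, 10.36 ± 0.45 and 10.11 ± 0.45 at these times, and MI0011482 10.05 ± 0.62, 10.33 ± 0.18 and 10.26 ± 0.23. The 3 times overlapped for each of the 3 rows.

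**Figure D2:**
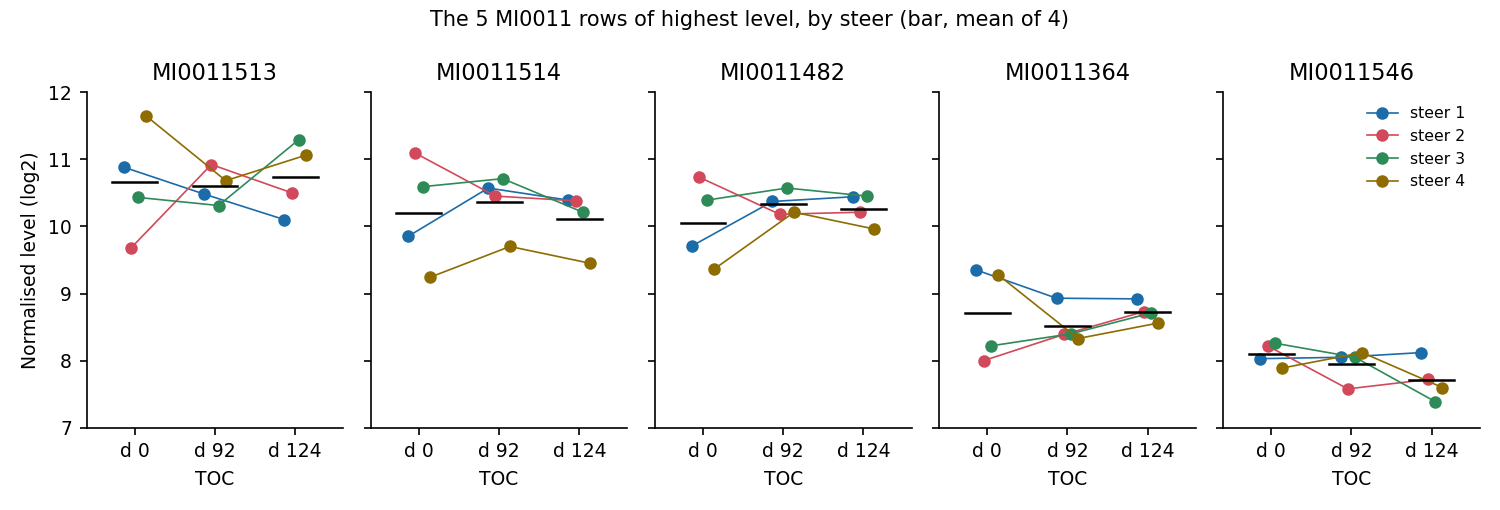
Normalised level (log2, y axis) of the 5 MI0011 rows of highest median at d 0, d 92 and d 124 (x axis), with 1 point per library, lines joining the libraries of a steer and bars for the mean of 4. Steer 4 is highest for MI0011513 and lowest for MI0011514 at d 0, and steer 4 is the lowest for MI0011514 at every time.

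MI0011364 and MI0011546 had lower medians. MI0011364 had 9.35, 8.0, 8.22 and 9.28 at d 0 in steers 1 to 4 and averaged 8.51 ± 0.28 at d 92 and 8.73 ± 0.15 at d 124 (SD, n = 4). MI0011546 averaged 8.10 ± 0.17 at d 0, 7.95 ± 0.25 at d 92 and 7.71 ± 0.30 at d 124. Its range at d 124 (7.39 to 8.12) overlapped that at d 0 (7.89 to 8.26).

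Several rows carried the same values as another row. They are not taken as separate measurements, except for rows seen in only 2 libraries, where ties are frequent. Each row has its own place in the counts of rows given here. A chromosome, which marks 1 locus of an entry, stood in the row name for 9 MI0011 entries (14 rows). For 5 entries 2 loci were listed. MI0011296, MI0011391 and MI0011410 were at 0 at both loci. The chr2 and chr3 loci of MI0011459 were equal in 12 of 12 libraries. They were above the floor in 5 libraries, with levels of 1.06, 0.79 and 1.81 in steers 2, 3 and 4 at d 0 and 1.09 and 0.61 in steers 1 and 4 at d 124. All 4 d 92 libraries were at the floor.

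The loci of MI0011446 behaved otherwise and were equal in 0 of 12 libraries. The chr29 locus had 3.67, 5.59, 3.91 and 4.24 at d 0 in steers 1 to 4, 4.34, 4.82, 3.90 and 5.14 at d 92, and 4.82, 4.50, 4.35 and 5.01 at d 124. The chr17 locus had 2.77, 3.88, 2.66 and 2.50 at d 0, 2.55, 2.87, 1.3 and 3.58 at d 92, and 2.92, 1.85, 2.48 and 2.26 at d 124. The chr29 locus was the higher in every library, by 0.90 to 2.75 (log2, median 1.83). The sources used here do not say how reads that match both loci were counted.

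**Figure D3:**
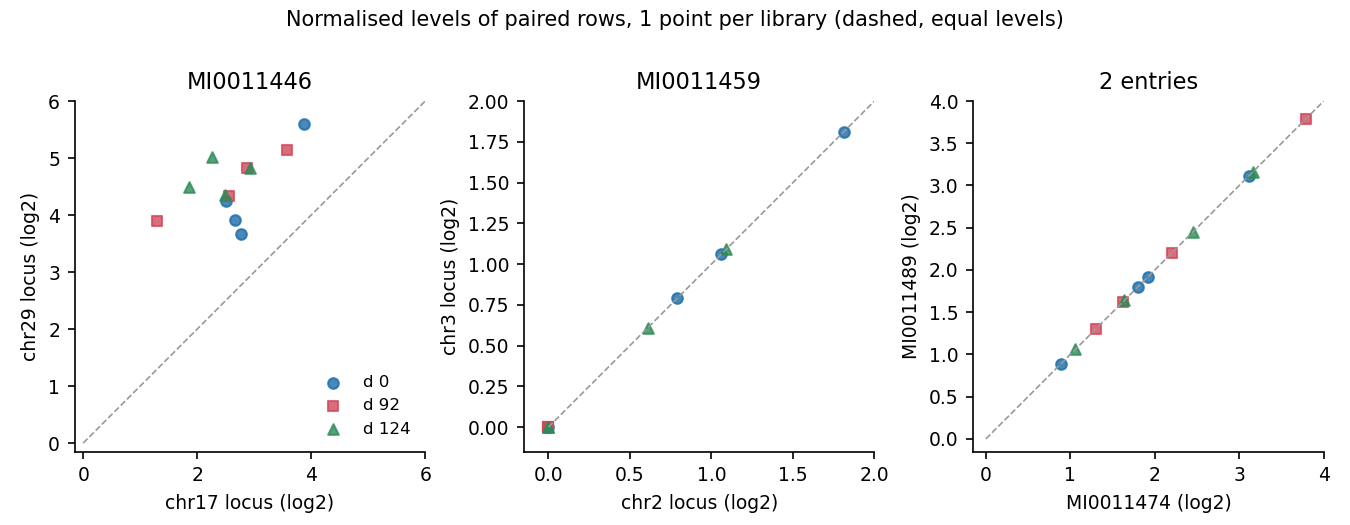
Normalised levels (log2) of 3 pairs of rows plotted against each other, with 1 point per library marked by time and a dashed line for equal levels. All 12 points of MI0011446 lie above the line, while those of MI0011459 (7 libraries at the floor share 1 place) and of MI0011474 against MI0011489 lie on it.

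Different entries also held the same values. MI0011474 and MI0011489 were equal in 12 of 12 libraries, with levels of 1.92, 3.11, 1.80 and 0.89 at d 0 in steers 1 to 4, 3.79, 2.20, 1.3 and 1.62 at d 92, and 2.45, 1.06, 3.16 and 1.64 at d 124. They were also equal in 7 libraries to an Ensembl row (ENSBTAG00000044312), with a largest difference of 0.622 (log2). Among the highest rows, MI0011514 equalled ENSBTAG00000042383 in 11 of 12 libraries and differed by at most 0.026, and MI0011482 equalled ENSBTAG00000042677 in 10 of 12 and differed by at most 0.039. MI0011354 and MI0011355 were above the floor in the same 2 libraries at the same levels, as were MI0011411 and MI0011527. At such low levels tied values are frequent, so equality in 2 libraries says little about these pairs. In total 9 rows seen in 2 libraries matched some other row in all 12. MI0011513 had no such counterpart.

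From a median level of 2 upward, the spread between steers tended to be smaller in rows of higher level. The SD of a row about its time means had a median of 0.70 (log2) over the 62 MI0011 rows seen in at least 4 libraries and of 0.48 over 306 other miRBase rows. Within bands of level the medians were closer from 2 upward, while under 2 the other rows had the larger SD. For rows with a median level of 7 or more, the SD was 0.46 (8 MI0011 rows) against 0.42 (177 other rows). Between 4 and 7 it was 0.61 (8 rows) against 0.51 (58 rows), and between 2 and 4 it was 0.95 (12 rows) against 0.97 (34 rows). Under 2 it was 0.72 (34 rows) against 0.94 (33 rows). Many values in that band are at the floor, and their part in the SD was not tested. Of the rows seen in all 12 libraries, MI0011546 (SD 0.248), bta-miR-2411 (0.37) and MI0011358 (0.389) had the smallest SD. The largest were in MI0011467 (1.14) and in the equal rows MI0011474 and MI0011489 (0.983).

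The steadiest rows kept to a narrow range in all 12 libraries. MI0011358 had 4.57, 3.60, 4.24 and 4.59 at d 0 in steers 1 to 4, 4.34, 3.27, 3.59 and 3.95 at d 92, and 4.48, 4.24, 4.05 and 4.27 at d 124. Steer 2 was its lowest at d 0 and d 92, and the times overlapped.

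The steer term passed an adjusted p of 0.05 in 2 MI0011 rows, in each of which a single steer stood apart at all 3 times. MI0011311 had levels of 5.89, 5.02 and 4.82 at d 0, d 92 and d 124 in steer 1. The other steers had it at the floor in 7 of their 9 libraries, and the 2 exceptions, steers 3 and 4 at d 92, were at 0.32 and 0.93. Every library of steer 1 was therefore far above all the others. The mean was 5.24 ± 0.57 (SD, n = 3) in steer 1 and 0.14 over the other 3 steers. It was tested because the 2 low libraries brought it over the filter of 4 libraries. This row had a steer term with an adjusted p of 3.63e-07 in a limma fit with time and steer over all 368 miRBase rows tested. MI0011467 had 3.97, 5.50 and 4.86 in steer 2 and between 6.31 and 7.54 in the other steers (adjusted p = 0.00109, limma). The mean of steer 2 was 2.06 (log2) below that of the others at 4.78 ± 0.77 (SD, n = 3).

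**Figure D4:**
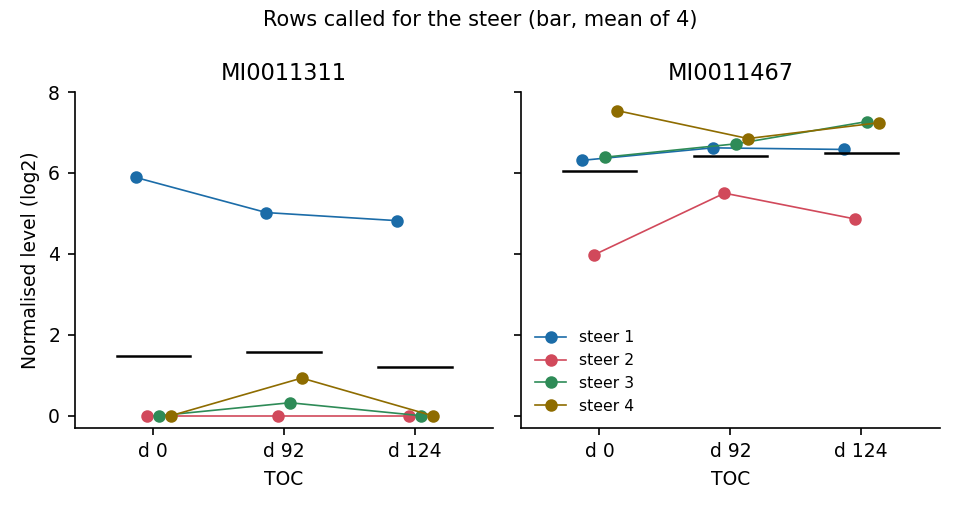
Normalised level (log2, y axis) of MI0011311 and MI0011467 at d 0, d 92 and d 124 (x axis), with 1 point per library, lines joining the libraries of a steer and bars for the mean of 4. Steer 1 lies between 4.82 and 5.89 for MI0011311 with all other libraries at or under 0.93, and steer 2 is the lowest for MI0011467 at each time.

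Over all 368 rows the steer term passed an adjusted p of 0.05 in 2.45% (9 rows), and 2 of the 62 MI0011 rows (3.23%) were among them. At an unadjusted p under 0.05 it was 6 of the 62 against 11.7% of all rows. The share of MI0011 rows called was thus near that of all rows. For MI0011467 the call was lost without the d 0 library of steer 2 (adjusted p = 0.0697, limma), and the other leave-outs kept both rows called. The 3 libraries of a steer are repeated biopsies of 1 animal, so these p-values speak of 4 animals of 1 sire. All 3 libraries of 1 steer lay outside the range of the other 9 libraries in 7 of 62 MI0011 rows (11.3%), against 7.07% of all 368 rows and 6.21% of the 306 other miRBase rows. Besides the 2 above these were MI0011496, MI0011497 and MI0011514, lowest in steer 4, MI0011314, highest in steer 4, and MI0011526, highest in steer 2. MI0011496, MI0011497, MI0011314 and MI0011526 had low median levels, from 0.62 to 2.05, and adjusted p from 0.155 to 0.574 (limma, steer term). In MI0011514 steer 4 ranged from 9.24 to 9.70 and the others from 9.85 to 11.09, with adjusted p = 0.164 (limma). The steer accounted for a median of 36.8% of the within-time variation in MI0011 rows and 38.2% in other miRBase rows, where 33.3% is the share that 4 steers take with no steer effect.

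Time-on-concentrates moved no MI0011 row past an adjusted p of 0.05. Limma with Benjamini-Hochberg adjustment called 0 of 368 miRBase rows at d 92 compared to d 0 (19 or 5.16% at an unadjusted p under 0.05), 0 at d 124 compared to d 0 (26 or 7.07% unadjusted) and 0 at d 124 compared to d 92 (7 or 1.90% unadjusted). The smallest adjusted p-values were 0.725, 0.487 and 0.978. Over the 3 times together, 0 rows were called and 4.62% had an unadjusted p under 0.05, with bta-miR-2346 as the 1 MI0011 row among these. Rows with an unadjusted p under 0.05 and a change of at least 1.3-fold are counted below, and with this many rows such calls are candidates only.

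At d 92 compared to d 0, 3 of 62 MI0011 rows (4.84%) passed these limits, against 4.89% of all 368 rows. Of these 1 was higher and 2 were lower at d 92, where 1.90% and 2.99% of all rows were. MI0011379 was the 1 that was higher at d 92. It had 3.37, 1.74, 3.80 and 0.89 at d 0 in steers 1 to 4, 3.98, 3.03, 4.38 and 3.95 at d 92 and 3.06, 3.77, 4.35 and 2.67 at d 124. All 4 steers were higher at d 92 than at d 0, and the 2 times overlapped. The largest rise was in steer 4. To the digits given, its d 0 value is the lowest level above the floor of that library (0.888), so the size of its rise depends on that level. The difference between the means of d 92 and d 0 was 1.39 (log2, SE 0.62, adjusted p = 0.861 from limma; exact permutation p = 0.143, two-sided). The row no longer passed the limits without the d 0 library of steer 2 or 4 or without the d 92 library of steer 1, 3 or 4.

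MI0011297 and MI0011438 were lower at d 92. MI0011297 had 3.67, 3.60, 2.15 and 3.96 at d 0, 3.10, 1.90, 2.37 and 0 at d 92 and 2.70, 2.72, 2.13 and 3.63 at d 124. Steer 4 fell to the floor at d 92, 3 of 4 steers were lower, and steer 3 was slightly higher. The difference was -1.50 (log2, SE 0.64, adjusted p = 0.861 from limma; exact permutation p = 0.0857, two-sided), and without the d 92 library of steer 4 it was -0.89. It no longer passed in that fit, nor without the d 0 library of steer 1, 2 or 4. MI0011438 had 0.95, 1.06, 2.66 and 0.89 at d 0, was listed at the floor in all d 92 libraries, and had 0, 0, 0.83 and 1.64 at d 124. With d 92 at the floor no fold is given. The d 0 and d 92 levels did not overlap (exact permutation p = 0.0286, two-sided, the smallest that 4 against 4 allows, and 0.321 adjusted over 15 such tests). That adjustment does not cover the choice of the row by its limma p in the same libraries. The d 0 libraries, where it was above the floor, brought the row over the filter of 4 libraries. To the digits given, its d 0 values in steers 1 and 4 are the lowest levels above the floor of those libraries (0.954 and 0.888). In steers 1 to 4, 133, 125, 75 and 124 features were tied at the lowest level at d 0. At d 92 there were 63, 70, 116 and 86. The part of this in the difference was not tested. The row no longer passed the limits without the d 0 library of steer 3 or on log2(value + 10), and it was left untested where 8 libraries above the floor were asked for. MI0011459, at the floor in the same d 92 libraries, did not pass.

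Groups did not overlap between d 0 and d 92 in 2 MI0011 rows, against 3.26% of all 368 rows. Besides MI0011438 this was MI0011540, with 6.67, 6.81, 7.14 and 6.18 at d 0 and 7.17, 7.28, 7.39 and 7.34 at d 92. Its d 124 levels of 6.48, 6.73, 7.19 and 7.99 spanned both. In the other 2 comparisons 0 MI0011 rows had groups that did not overlap, against 2.72% of all rows at d 124 compared to d 0 and 1.09% at d 124 compared to d 92.

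**Figure D5:**
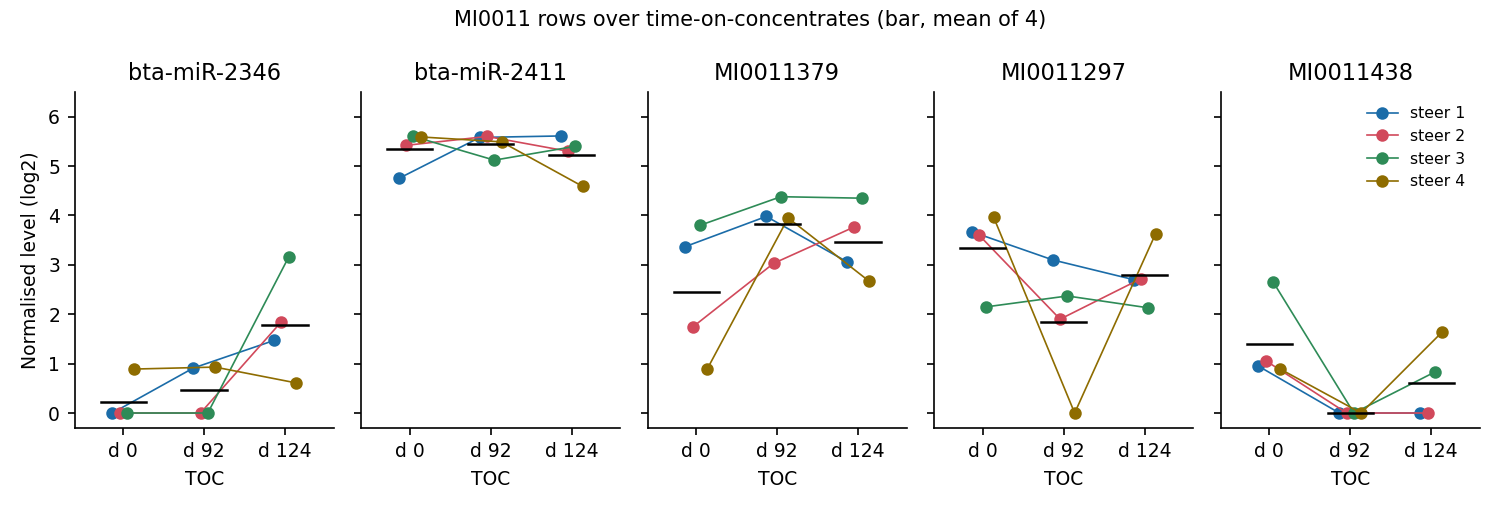
Normalised level (log2, y axis) of bta-miR-2346, bta-miR-2411, MI0011379, MI0011297 and MI0011438 at d 0, d 92 and d 124 (x axis), with 1 point per library, lines joining the libraries of a steer and bars for the mean of 4. All d 92 points of MI0011438 lie at the floor, and bta-miR-2346 is above the floor in all 4 libraries only at d 124.

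The other 2 comparisons each had 1 MI0011 row past the limits (1.61%), against 7.07% of all rows at d 124 compared to d 0 and 1.90% at d 124 compared to d 92. In both it was bta-miR-2346 (MI0011374), higher at d 124. Of all rows, 1.63% were higher and 5.43% lower at d 124 compared to d 0, and 0.815% and 1.09% compared to d 92. This miRNA was at the floor at d 0 in steers 1, 2 and 3 and at 0.89 in steer 4. At d 92 it had 0.91, 0, 0 and 0.93 in steers 1 to 4, and at d 124 it had 1.47, 1.85, 3.16 and 0.61. It was above the floor in 1, 2 and 4 libraries at the 3 times. In steer 4, the only steer above the floor at d 0, the level was lowest at d 124. To the digits given, the 3 values of steer 4 are the lowest levels above the floor of those libraries (0.888, 0.928 and 0.61). The same holds for steer 1 at d 92 (0.908). A change between such values cannot be told apart from a change in the lowest level. The d 124 libraries, where bta-miR-2346 was high, brought it over the filter of 4 libraries, so its p-values are those of a selected row. The difference at d 124 was 1.55 compared to d 0 (log2, SE 0.55, adjusted p = 0.487 from limma; exact permutation p = 0.0571, two-sided) and 1.31 compared to d 92 (adjusted p = 0.978; exact permutation p = 0.0857). With d 0 mostly at the floor, the log2 difference depends on the floor. Without the d 124 library of steer 3 the difference from d 0 was 1.09 and the row no longer passed the limits in either comparison. Compared to d 92 it also failed them without the d 92 library of steer 2 or of steer 3.

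The mean level of bta-miR-2411 (MI0011456) was 5.34 ± 0.41 at d 0, 5.45 ± 0.23 at d 92 and 5.23 ± 0.44 at d 124 (SD, n = 4). It had 4.75, 5.42, 5.60 and 5.59 at d 0 in steers 1 to 4, 5.58, 5.60, 5.12 and 5.49 at d 92, and 5.61, 5.30, 5.40 and 4.59 at d 124. All 3 times overlapped, with single low libraries of steer 1 at d 0 and steer 4 at d 124. The differences were 0.11 at d 92 and -0.11 at d 124 compared to d 0 (log2, SE 0.34 each, adjusted p = 0.985 and 0.972 from limma).

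The tested MI0011 rows were split over both directions. Of the 62 tested, 32 were higher at d 92 than at d 0, where 38.6% of all 368 rows were higher. At d 124, 27 were higher than at d 0 (41.3% of all rows) and 31 were higher than at d 92 (51.6% of all rows). The median difference of the 62 rows was 0.03, -0.07 and 0.02 (log2) in these comparisons, and over all 368 rows it was -0.09, -0.07 and 0.01. The comparisons share the d 0, d 92 or d 124 libraries. Since 43 of the 105 rows were seen in too few libraries to be tested, these counts do not cover the sparse rows.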

How the data were processed

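The authors sequenced small RNA from 12 muscle biopsies on an Ion S5, aligned it to bosTau4 with StrandNGS and normalised it with its Quantile algorithm. The deposited values are log2 levels with the median of each row over the 12 libraries subtracted and low values set to a floor (log2 0). The sources used here name neither the base, the software version nor the counting of shared reads, and base 2 was taken from the size of the values. The column codes of the d 92 libraries name a nearby day, and the labels' d 92 was used. The table holds no counts per library, so the precision rests on the 4 steers.

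This median was recovered for 1306 of the 1314 rows that vary, including all 105 MI0011 rows, from levels that rows share after quantile normalisation (tolerance 3e-06). Differences between times do not depend on it. A library was above the floor when its level exceeded 0. In rows without a recovered median, a library counted as above it when its value exceeded the row's lowest. The 4 such miRBase rows, all outside the MI0011 block, therefore could not count as above the floor in all 12 libraries. Limma 3.58.1 in R 4.3.3 (trend on the recovered level, robust) was fitted with time alone to the 12 libraries, on 368 miRBase rows above the floor in at least 4 libraries, with Benjamini-Hochberg adjustment. The few rows without a median took the highest recovered one for the trend. The limits of p under 0.05 and 1.3-fold come from the study's methods. Exact permutation tests were two-sided over 70 regroupings of 4 against 4 libraries, which leave out the pairing by steer. They were run on the rows past these limits and on bta-miR-2411. The rows past the limits had been picked by their limma p in the same libraries. The adjustment over 15 tests does not cover that choice, so these p-values are no separate evidence. Scripts were tested on simulated data. Other steps used pandas 2.3.3, numpy 2.4.6 and matplotlib 3.10.9 under Python 3.11.15.

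The replicate number is the steer, so the numbers pair the libraries. Deviations from the time means correlated between -0.051 and 0.441 (median 0.116, 12 pairs) within steers and with a median of -0.026 between steers. The study's analysis has no steer term, so the block is an alternative, and the F test of the steer term was added after the data had been seen. The steers are separate animals.

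The rows, the lists and the rule for named rows were chosen with earlier results of these data known. The rule named bta-miR-2346 and bta-miR-2411, rows past the limits of p and fold, the 5 of highest median, entries with more than 1 locus, the 3 largest and 3 smallest SD among rows in all 12 libraries, and rows seen in every library of 1 time and none of another. MI0011311, MI0011496, MI0011497, MI0011314, MI0011526, MI0011540 and the rows equal to another were named after their values were seen. RefSeq (ARS-UCD2.0) matched 0 table identifiers and gave only neighbouring genes by name. No sequence was used here.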

Additional observations from a re-analysis of the deposited data

Results flagged for a closer look

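Among 51 sets of 4 libraries (a named row at 1 time, leaving out sets with 3 tied values), 4 held a library far from the other 3 by Dixon's limit for 4 values. For unselected and independent sets chance gives about 1 in 20 (2.55 here). These rows were named in part for their values in the same libraries, and equal rows count as separate sets. The chance figure covers neither. MI0011364 at d 92 had its highest level in steer 1 (8.93), MI0011438 at d 0 in steer 3 (2.66). The lowest level stood apart for MI0011467 at d 92 in steer 2 (5.50) and for MI0011546 at d 92 in steer 2 (7.58). Steer 2 was also the lowest for MI0011467 at the other times.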

How the results depend on the processing

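No alternative called a row for time at an adjusted p of 0.05, including the replicate block for the steer (0 rows in each comparison). With the block, the number of MI0011 rows past p under 0.05 and 1.3-fold was 3 at d 92 against d 0, 2 at d 124 against d 0 (MI0011545 joined) and 1 at d 124 against d 92, and the median SD was 0.65 in place of 0.70. Without trend and robust estimation the counts against d 0 were 7 at d 92 and 2 at d 124. With no filter they were 6 and 3, and 2 at d 124 compared to d 92. The 7 and the 6 each count both loci of MI0011459. Above the floor in at least 8 libraries, and on log2(value + 10), it was 0 at d 124 in both comparisons. At d 92 both lost MI0011438 (2 rows left). The first leaves bta-miR-2346 and MI0011438 untested. Leaving out each library gave 2 to 5 rows at d 92 compared to d 0, 1 to 3 at d 124 compared to d 0 and 0 to 1 at d 124 compared to d 92. At d 92 compared to d 0, 5 came without d 0 replicate 4, and MI0011297 or MI0011379 was lost in 6 of these fits. At d 124 compared to d 0, 3 came without d 0 replicate 2, d 0 replicate 3 or d 124 replicate 2. At d 124 compared to d 92, 0 came without d 92 replicate 2 or 3. With the trend on the deposited values, chosen after seeing the data, MI0011332 replaced MI0011379.

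The sign of bta-miR-2411 reversed without d 0 replicate 1 (-0.093 at d 92) and without d 124 replicate 4 (0.097 at d 124), within leave-out ranges of -0.093 to 0.215 and -0.313 to 0.097. The steer term called 5 rows without trend and robust estimation and 4 to 19 on leaving out a library (4 without d 0 replicate 2, 5 without d 0 replicate 1 or d 124 replicate 1, 19 without d 0 replicate 3), with 1 to 2 MI0011 rows among them. Without d 0 replicate 2, MI0011467 had an adjusted p of 0.0697 (limma). MI0011 rows at least 1 (log2) above the lowest level had medians of 28.5, 29.5 and 38 per library at d 0, d 92 and d 124, against 61, 46.5 and 53.5 above the floor, and 26.5, 28 and 30 above 1 common level, chosen after seeing the data. The causes were not tested. Levels near the floor rest on few reads of unknown number.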
